A study of Homo sapiens with 24 samples.

Results

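The nuclear genes for the structural subunits of the 5 oxidative phosphorylation complexes were followed in THP-1 macrophages with and without the carboxylesterase CES1. Members were the protein-coding genes whose symbols carry a subunit name of complexes I to V (NDUFA, NDUFB, NDUFC, NDUFS and NDUFV genes, SDHA to SDHD, the UQCR genes with CYC1, the COX5 to COX8 genes, and the ATP5 genes of the F1 and F0 parts). The rule used no measured value. It took 85 of the 58735 genes of the deposited table: 37 genes of complex I, 4 of complex II, 10 of complex III, 17 of complex IV and 17 of complex V. NDUFA4 and its paralog NDUFA4L2 carry complex I names and are counted in complex IV, where NDUFA4 resides. COX4I1, NDUFAB1, ATP5MD, ATP5MPL and cytochrome c (CYCS) have names outside the rule and are given apart.

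THP-1 is a human monocytic leukaemia line, and all 24 libraries came from THP-1 cells that had been made macrophage-like with 20 nM of the phorbol ester PMA for 72 hours. Knockdown cells (CES1KD) carried a lentiviral short hairpin against CES1 that was stably held, and the reference cells are named WT in the labels and control in the series text. In each line, M1 cells were treated with LPS (1 ug/ml) together with interferon gamma (100 ng/ml), M2 cells with IL-4 (100 ng/ml), and M0 cells with neither. This gave the 6 groups CES1KD M1, CES1KD M2, CES1KD M0, WT M1, WT M2 and WT M0, with 4 libraries each. The labels do not say how long these treatments lasted, whether WT cells held a vector, or whether the knockdown line is a clone. An effect of CES1 loss cannot be told apart from any other lasting difference between the 2 lines. Nothing in the labels says that the 4 libraries of a group were grown apart. The p-values therefore rest on the spread among these libraries, which may be technical.

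Oxidative phosphorylation passes electrons from NADH and succinate along complexes I to IV of the inner mitochondrial membrane to oxygen, and complexes I, III and IV pump protons that drive ATP synthase, complex V. Complex I takes electrons from NADH and complex II from succinate. Both hand them on through ubiquinone to complex III, which reduces cytochrome c, the substrate of complex IV. Every subunit of complex II and most subunits of the others are encoded in the nucleus, made in the cytosol and imported, while the mitochondrial genome encodes a small set of core subunits of complexes I, III, IV and V. In macrophages, LPS with interferon gamma is known for a turn toward glycolysis, and IL-4 for respiration and fatty acid oxidation.

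Each library held between 14881563 and 26671681 fragments on genes. CES1 lay between 0 and 0.124 FPKM (fragments scaled to gene length and library size) in the CES1KD libraries and between 4.04 and 7.78 FPKM in the WT libraries. Of the 7 macrophage markers checked, CD14, LYZ, SPI1, CSF1R, ITGAM and TYROBP were above 1 FPKM in every library, and CD68 was listed at or below 0.113 FPKM in every library. EPCAM, CD3E and HBB, which mark epithelium, T cells and erythroid cells, were listed at 0 in all 24 libraries. LYZ averaged 2.33 to 2.4 FPKM in the CES1KD groups and 9.24 to 13.9 FPKM in the WT groups, and PDGFRB, a fibroblast marker, 0.658 to 1.18 FPKM in the CES1KD groups and 0.047 to 0.158 FPKM in the WT groups. PDGFRA, another fibroblast marker, averaged 1.26 to 1.87 FPKM in the CES1KD groups and 2.14 to 5.11 FPKM in the WT groups. COL1A1 and COL1A2, the defining fibroblast markers, were at or below 0.291 FPKM in every library, and the part of these differences in the results was not tested. CES1KD M2 replicate 2 stood apart: it correlated with a library of its own group at r as low as 0.951 across genes, where the lowest r within the other 5 groups was 0.977. It was the lowest library of its group for 54 of the 73 subunit genes tested. WT M1 replicate 4 was the highest library of its group for 51 of them.

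Summed over the 85 genes, the level was lower in the knockdown line in each state. It was 1953 ± 172 FPKM in CES1KD M1 cells and 2612 ± 328 FPKM in WT M1 cells (SD, n = 4 each, as for all means below). It was 2309 ± 365 FPKM in CES1KD M2 cells and 3149 ± 286 FPKM in WT M2 cells, and 2063 ± 92.5 FPKM in CES1KD M0 cells and 2855 ± 46.7 FPKM in WT M0 cells. The knockdown mean was 0.748 times the WT mean in M1, 0.733 times in M2 and 0.722 times in M0. In no state did the 4 knockdown libraries overlap the 4 WT libraries. The lowest library was CES1KD M2 replicate 2 at 1795 FPKM, beside 2311 to 2600 FPKM in the other 3 of its group. Without it the CES1KD M2 mean was 2481 ± 151 FPKM (SD, n = 3), 0.788 times the WT M2 mean. A sum gives most weight to the abundant genes, of which ATP5F1B, the catalytic beta subunit of ATP synthase, was the highest.

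The complexes differed in how far their sums were apart. Complex II had the smallest difference, with knockdown means of 0.832, 0.839 and 0.837 times the WT means in M1, M2 and M0. Complex V lay at 0.703, 0.731 and 0.73 times, and complex IV at 0.731, 0.687 and 0.674 times. The M2 ratios without CES1KD M2 replicate 2 were 0.8, 0.86, 0.818, 0.784 and 0.751 for complexes I to V, so that in M2 complex V and not complex IV had the lowest ratio. The libraries of the 2 lines overlapped only for complex IV in M1, where CES1KD libraries ranged from 396 to 577 FPKM and WT libraries from 509 to 861 FPKM. In bulk RNA, less of a transcript in every cell and fewer cells that hold it cannot be told apart.

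**Figure D1:**
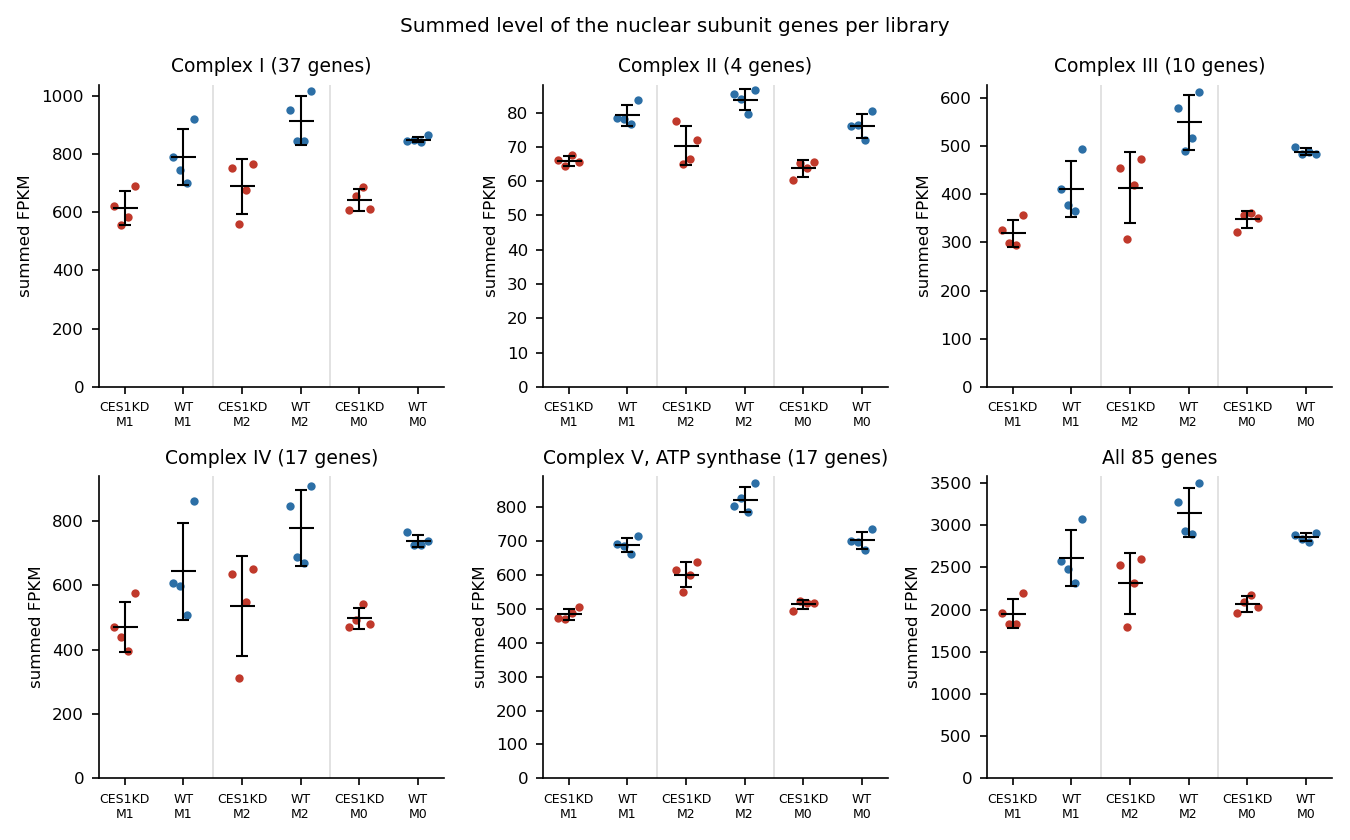
Summed FPKM of the nuclear subunit genes of each complex (vertical axes, from 0) in each of the 24 libraries, by group. Points are libraries, bars the mean and whiskers the SD over 4 libraries. The CES1KD points lie below the WT points of the same state in every panel, apart from complex IV in M1, where the ranges 396 to 577 and 509 to 861 overlap.

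A fit with limma on log2(FPKM + 1) kept the genes with at least 1 FPKM in at least 4 libraries, which left 13242 genes and 73 of the 85 members. Of these, 69 had at least 1 FPKM in every library, so they did not enter through 1 group only. The other 4 were NDUFA11, NDUFS7, UQCRHL and NDUFA4L2. NDUFA4L2, with at least 1 FPKM in 9 libraries, would not have passed without the M2 libraries, nor without the CES1KD libraries. In M1 cells 46 of the 73 were lower in the knockdown line and 5 higher, where 28.7% of all genes tested were called lower and 28.5% higher (57.2% in either direction). In M2 cells 53 were lower and 1 higher, against 26.7% and 25.6% of all genes (52.3% in either direction). In M0 cells 49 were lower and 2 higher, against 26.3% and 28.1% of all genes (54.3% in either direction). The shares of members called lower were thus 63%, 72.6% and 67.1%. The median log2 difference over the members was -0.39 in M1, -0.49 in M2 and -0.47 in M0, and over all genes it was within 0.01 of 0 in each state. Without CES1KD M2 replicate 2, 41 members were lower and 2 higher in M2, with a median of -0.30.

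The 3 knockdown comparisons use different libraries. They share the same 2 lines and, for each gene, 1 estimate of the spread, so they are not independent repeats. Of the 73 members, 41 were called lower in all 3 states, which is 56.2% of them, against 16.9% of all genes tested. A further 8 were lower in 2 states and 9 in 1 state. The fitted difference was below 0 in all 3 states for 66 members. In M0, where libraries of a group lay closest together, all 4 knockdown libraries were below all 4 WT libraries for 58 members, against 28.3% of all genes. That count was 36 in M1, against 25.1%, and 37 in M2, against 21.2%. Leaving out CES1KD M2 replicate 2, 37 members were lower in all 3 states, and 38 did not overlap in M2, against 28.7% of all genes. The 41 genes were 16 of complex I, 2 of complex II, 6 of complex III, 6 of complex IV and 11 of complex V.

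**Figure D2:**
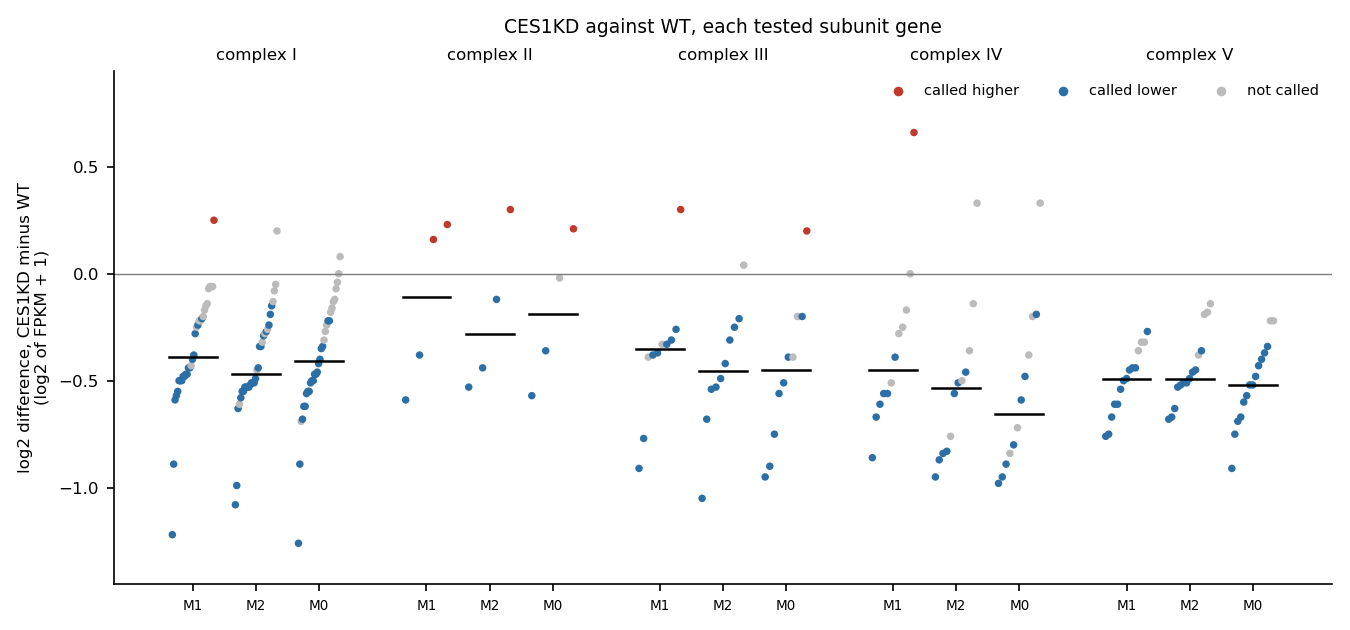
Log2 difference between CES1KD and WT (vertical axis, on the log2(FPKM + 1) scale) of each of the 73 tested subunit genes, by complex and state. Each point is a gene, coloured by its call, and black lines are medians. Most points of complexes I, III, IV and V lie below 0 in each state, 2 of the 4 of complex II do so in M1, and the points called higher include SDHA, SDHC, UQCRC1 and NDUFA4L2.

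In complex I, 19, 23 and 20 of the 32 genes tested were lower in the knockdown line in M1, M2 and M0, and 1, 0 and 0 were higher. The largest difference of any member was that of NDUFA2, an accessory subunit, on chromosome 5 (minus strand, 140638740 to 140647785, GRCh38). Its level was 8.95, 6.81, 8.0 and 9.37 FPKM in CES1KD M1 libraries and 20.0, 17.9, 15.5 and 31.6 FPKM in WT M1 libraries. In M2 it was 11.9, 6.54, 11 and 12.0 FPKM in CES1KD and 29.4, 16.9, 19.0 and 26.6 FPKM in WT libraries. In M0 it was 9.72, 9.72, 10.6 and 9.42 FPKM in CES1KD and 23.3, 25, 24.1 and 28.0 FPKM in WT libraries. No knockdown library reached the lowest WT library of its state, and WT M1 replicate 4 was the highest of all. The log2 difference was -1.22 in M1, -1.08 in M2 and -1.26 in M0 (SE 0.19 each, adjusted p = 1.14e-05, 6.14e-05 and 7.97e-06).

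NDUFS4, an accessory subunit of the NADH-oxidising module whose loss impairs complex I assembly, averaged 18.7 ± 1.19 FPKM in CES1KD M1 cells and 35.5 ± 3.17 FPKM in WT M1 cells. It averaged 16.8 ± 3.59 and 33.7 ± 3.12 FPKM in CES1KD and WT M2 cells, and 16.5 ± 0.42 and 31.6 ± 2.01 FPKM in CES1KD and WT M0 cells. Its log2 differences were -0.89, -0.99 and -0.89 (SE 0.11). The libraries of the 2 lines did not overlap in any state for NDUFS4. NDUFB9, an accessory subunit of the membrane arm, differed by -0.55, -0.58 and -0.46 in M1, M2 and M0 (SE 0.06). NDUFB5, also of the membrane arm, differed by -0.48, -0.53 and -0.62 (SE 0.07). NDUFA10, an accessory subunit, differed by -0.38, -0.29 and -0.34 with a small SE of 0.04. Among the core subunits, NDUFS1 differed by -0.21, -0.27 and -0.22, and NDUFS3 by -0.44, -0.34 and -0.22, all called. NDUFV1, which binds FMN and takes the electrons of NADH, differed by -0.47 in M1 and -0.40 in M0, and by -0.26 in M2, where it was not called. NDUFS8, an iron-sulfur core subunit, was called only in M2, at -0.15, and without CES1KD M2 replicate 2 it was not called there either, at -0.11.

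Complex II, which also runs in the citric acid cycle, was split. SDHB, the iron-sulfur subunit, averaged 21.6 ± 1.08 FPKM in CES1KD M1 cells and 32.9 ± 1.37 FPKM in WT M1 cells, and differed by -0.59, -0.44 and -0.36 in M1, M2 and M0 (SE 0.06). SDHD, a membrane anchor, differed by -0.38, -0.53 and -0.57 (SE 0.10). SDHA, the flavoprotein that oxidises succinate, was higher in the knockdown line in all 3 states. It lies on chromosome 5 (plus strand, 218241 to 256700, GRCh38). In M2 it was at 21.2, 19.5, 18.9 and 20.9 FPKM in CES1KD and at 17.2, 16.1, 15.4 and 15.9 FPKM in WT libraries. In M0 it was at 16.1, 18, 17.4 and 16.6 FPKM in CES1KD and at 15.1, 14.3, 14.3 and 14.7 FPKM in WT libraries. The groups did not overlap, and the log2 differences were 0.23, 0.30 and 0.21 in M1, M2 and M0 (SE 0.05, adjusted p = 0.000511, 2.75e-05 and 0.00134). SDHC, the other membrane anchor, was called higher in M1 at 0.16 and lower in M2 at -0.12 (SE 0.05, adjusted p = 0.00709 and 0.0332), and was not called in M0 at -0.02. The M1 call of SDHC was lost with scaling by total fragments, and the M2 call was lost without CES1KD M2 replicate 3 or 4 or WT M2 replicate 1 or 2. The 3 SDHA pseudogenes in the table reached up to 7.08 FPKM, so fragments of near-identical copies may be split between them and SDHA.

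In complex III, 7, 9 and 7 of the 10 genes were lower in M1, M2 and M0. UQCRQ, a small subunit, lies on chromosome 5 (plus strand, 132866560 to 132868031, GRCh38). It was at 22.2, 18.3, 23.7 and 28.0 FPKM in CES1KD M1 libraries and at 43.8, 40.1, 40.4 and 51.7 FPKM in WT M1 libraries. In M2 it was at 34.2, 22.2, 32.1 and 39.9 FPKM in CES1KD and at 60.9, 62.3, 66.2 and 75.0 FPKM in WT libraries. The groups did not overlap, and the means in M0 were 29 ± 3.19 FPKM in CES1KD and 54.8 ± 1.9 FPKM in WT cells. Its log2 differences were -0.91, -1.05 and -0.90 (SE 0.14). UQCRH, the hinge protein, differed by -0.77, -0.68 and -0.95, and without CES1KD M2 replicate 2 it was not called in M2, at -0.41. UQCRC2, a core protein, averaged 22.9 ± 0.579 FPKM in CES1KD M0 cells and 34.2 ± 1.24 FPKM in WT M0 cells, and differed by -0.33, -0.31 and -0.56 (SE 0.06). UQCRB, a small subunit that binds ubiquinone, differed by -0.38, -0.54 and -0.75 (SE 0.15). CYC1, cytochrome c1, differed by -0.37 in M1 and -0.25 in M2 (SE 0.09), and was not called in M0 at -0.20. Without CES1KD M2 replicate 2 it was not called in M2 either, at -0.14.

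UQCRC1, the partner of UQCRC2 in the core of complex III, was not lower in any state. It was at 79.0, 78.6, 81.4 and 86.9 FPKM in CES1KD M1 libraries and at 69.1, 62.2, 66.1 and 65.8 FPKM in WT M1 libraries. In M0 it was at 71.2, 75.0, 71.7 and 79.2 FPKM in CES1KD and at 64.5, 60.8, 64.9 and 68.7 FPKM in WT libraries. The log2 differences were 0.30 in M1 and 0.20 in M0 (SE 0.06, adjusted p = 0.000255 and 0.0115), and the M0 call was lost with scaling by total fragments. In M2 the means of 94.8 ± 9.61 FPKM in CES1KD and 91.8 ± 3.81 FPKM in WT cells were not called apart. UQCRC1 lies on chromosome 3 (minus strand, 48599002 to 48610976, GRCh38).

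In complex IV, 6, 7 and 7 of the 12 genes tested were lower in M1, M2 and M0. NDUFA4, a subunit of the assembled oxidase, lies on chromosome 7 (minus strand, 10931951 to 10940256, GRCh38). It was at 20.9, 21.7, 23.5 and 21.3 FPKM in CES1KD M0 libraries and at 42.5, 45.7, 43.6 and 43.6 FPKM in WT M0 libraries. The knockdown mean was 0.498 times the WT mean in M0, 0.551 times in M2 and 0.664 times in M1. The log2 differences were -0.56, -0.84 and -0.98 in M1, M2 and M0 (SE 0.08, adjusted p = 4.19e-06, 1.56e-08 and 1.11e-09). COX7C, a small subunit, averaged 43.1 ± 2.35 FPKM in CES1KD M0 cells and 84.2 ± 1.84 FPKM in WT M0 cells, and differed by -0.86, -0.95 and -0.95 (SE 0.10). COX6C differed by -0.61, -0.87 and -0.80 (SE 0.12). COX7A2, the isoform found in most tissues, differed by -0.39, -0.56 and -0.48 (SE 0.07).

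NDUFA4L2, a paralog of NDUFA4 that hypoxia induces, was close to the filter and higher in the knockdown line in M1. Without the CES1KD libraries it would not have passed the filter, so its tests between the lines were not independent of the filter. It was at 0.853, 0.74, 1.13 and 1.26 FPKM in CES1KD M1 libraries and at 0.234, 0.391, 0.0533 and 0.381 FPKM in WT M1 libraries. The groups did not overlap. The log2 difference of 0.66 (SE 0.15, adjusted p = 0.000795) understates the ratio of the means, 3.77, because 1 is added to each value. In M2 and M0 the differences of 0.33 in each were not called. The M0 libraries did not overlap either, at 0.526 to 1.13 FPKM in CES1KD and 0.4 to 0.494 FPKM in WT. Without CES1KD M2 replicate 2 the M2 difference was 0.53 and called (limma, adjusted p = 0.000479). Its level was far below that of NDUFA4 on the FPKM scale, which divides by gene length.

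In complex V, 12, 11 and 13 of the 15 genes tested were lower in M1, M2 and M0 and none was higher. ATP5PB, the b subunit of the peripheral stalk, had the smallest p of all members in each state. It was at 36.8, 37.2, 38.3 and 37.6 FPKM in CES1KD M1 libraries and at 65.0, 63.1, 63.0 and 65.5 FPKM in WT M1 libraries. In M0 it was at 45.6, 49.1, 46.9 and 48 FPKM in CES1KD and at 81.6, 79.6, 78.7 and 81.6 FPKM in WT libraries. The groups were far apart, with log2 differences of -0.76, -0.67 and -0.75 in M1, M2 and M0 (SE 0.04, adjusted p = 9.94e-13, 1.06e-11 and 1.19e-12). In M2, CES1KD M2 replicate 2 was the highest of its group for ATP5PB, at 65.6 FPKM, beside 58.6 to 59.9 FPKM in the other 3. ATP5F1A, the alpha subunit of the catalytic head, differed by -0.67, -0.49 and -0.52 (SE 0.05). ATP5F1B averaged 226 ± 10.5 FPKM in CES1KD M1 cells and 306 ± 7.53 FPKM in WT M1 cells, and differed by -0.44, -0.36 and -0.34 (SE 0.04). ATP5F1C, the gamma subunit of the central stalk, differed by -0.44, -0.51 and -0.48 (SE 0.05). The 3 genes for the membrane c ring encode the same mature protein, and each was lower in all 3 states: ATP5MC1 differed by -0.61, -0.53 and -0.43, ATP5MC2 by -0.54, -0.63 and -0.37, and ATP5MC3 by -0.75, -0.68 and -0.69.

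**Figure D3:**
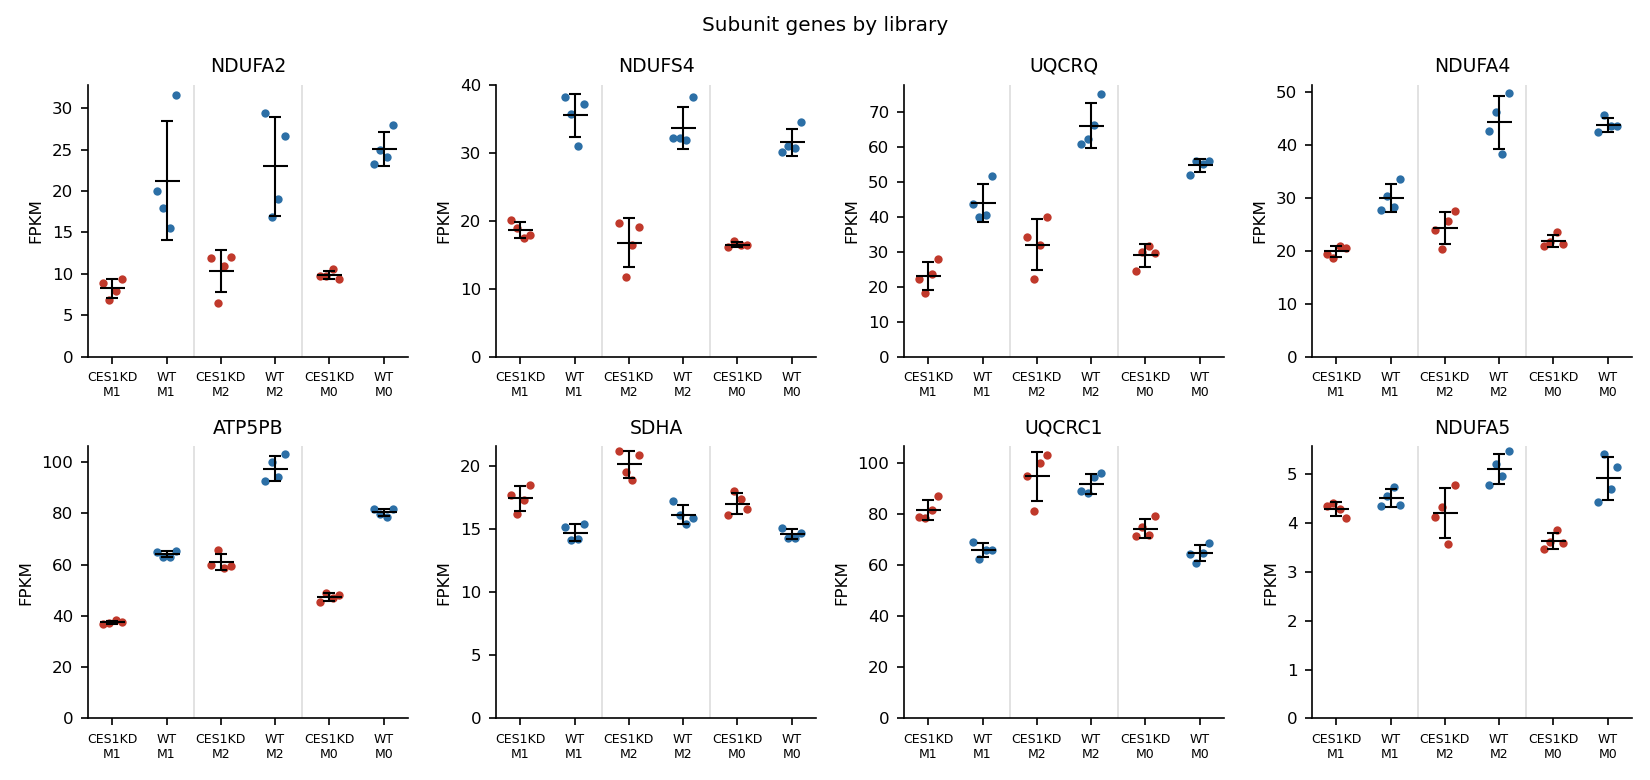
FPKM of 8 subunit genes (vertical axes, from 0) in each of the 24 libraries, by group. Points are libraries, bars the mean and whiskers the SD over 4 libraries. NDUFA2, NDUFS4, UQCRQ, NDUFA4 and ATP5PB show every CES1KD point below the WT points of the same state, SDHA shows the reverse, UQCRC1 does so in M1 and M0, and NDUFA5 overlaps in M1.

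The 11 members called in no state were ATP5F1D, ATP5F1E, COX6A1, COX6B1, COX8A, NDUFA1, NDUFA3, NDUFA11, NDUFB10, NDUFS6 and NDUFS7. For several of them the libraries of a group were spread widely. NDUFA1, an accessory subunit of complex I, was at 18.5, 13.6, 10.5 and 29.1 FPKM in CES1KD M1 libraries and at 21.8, 17.3, 13.4 and 52.6 FPKM in WT M1 libraries. In M0 it was at 19.8, 16.5, 25.4 and 20.2 FPKM in CES1KD and at 34.3, 36.3, 32.2 and 30.4 FPKM in WT libraries. The M0 libraries did not overlap, yet the difference of -0.69 was not called, since the spread of all 6 groups enters its SE of 0.41. Its 95% interval ran from -1.54 to 0.17. COX6A1 and COX6B1, both small subunits of complex IV, likewise had M0 differences of -0.84 (interval -1.76 to 0.08) and -0.72 (interval -1.44 to -0.01, adjusted p = 0.0826) without overlap in M0. NDUFS6 differed from these, with 30.5 ± 2.54 FPKM in CES1KD M0 cells and 30.5 ± 1.87 FPKM in WT M0 cells and an interval from -0.22 to 0.21.

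Within a group, the tested members moved together from library to library. CES1KD M2 replicate 2 had a median deviation of -0.37 log2 over the tested members from the mean of its group, and CES1KD M2 replicate 4 had 0.19. CES1KD M1 replicate 4 had 0.12, WT M1 replicate 4 had 0.16 and WT M2 replicate 4 had 0.13. Replicate 4 was thus above the mean of its group in every M1 and M2 group. The M0 libraries of both lines stayed between -0.06 and 0.06. The median deviation of the cytosolic ribosomal protein genes was -0.28 in CES1KD M2 replicate 2, 0.15 in CES1KD M2 replicate 4 and 0.16 in WT M1 replicate 4. The median over all genes was within 0.02 of 0 in all 24 libraries. The part of this shared deviation in the knockdown differences was not tested, apart from the values without each library.

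Promoter sequences are shown for 5 members that mark the pattern. NDUFA2 and UQCRQ were lower by more than the other members in M1 and M2, and ATP5PB had the smallest p. SDHA was higher in the knockdown line in M1, M2 and M0, and UQCRC1 was called higher in M1 and M0 but not in M2. The sequences are the 250 bases before the RefSeq gene start (GRCh38.p14), 5′ to 3′ on the strand of the gene. Capitals mark matches on either strand to 4 motifs: the core of nuclear respiratory factor 1, NRF1 (GCGCA and GCGC with 1 base of any kind between them), an ETS core as bound by GABP (CCGGAAG), a YY1 core (AAGATGGC) and the CCAAT box (CCAAT). No motif overlaps another in these sequences. The windows are chr5:140647631-140647880 (minus strand) for NDUFA2, chr5:132866392-132866641 (plus) for UQCRQ, chr1:111449214-111449463 (plus) for ATP5PB, chr3:48609647-48609896 (minus) for UQCRC1 and chr5:218070-218319 (plus) for SDHA.
NDUFA2: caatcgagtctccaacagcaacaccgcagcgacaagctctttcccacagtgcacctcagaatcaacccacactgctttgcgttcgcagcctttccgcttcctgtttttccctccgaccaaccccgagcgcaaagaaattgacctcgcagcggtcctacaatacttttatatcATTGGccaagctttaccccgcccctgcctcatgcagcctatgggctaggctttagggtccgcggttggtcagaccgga
UQCRQ: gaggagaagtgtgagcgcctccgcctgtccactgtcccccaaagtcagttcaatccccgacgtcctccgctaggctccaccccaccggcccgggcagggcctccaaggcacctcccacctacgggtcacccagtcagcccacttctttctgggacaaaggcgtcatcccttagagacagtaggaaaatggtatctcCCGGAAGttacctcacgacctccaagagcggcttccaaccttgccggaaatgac
ATP5PB: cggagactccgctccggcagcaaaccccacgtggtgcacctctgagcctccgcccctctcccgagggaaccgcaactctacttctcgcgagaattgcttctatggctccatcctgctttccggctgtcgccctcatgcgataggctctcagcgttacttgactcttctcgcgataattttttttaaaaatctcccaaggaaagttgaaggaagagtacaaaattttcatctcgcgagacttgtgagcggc
UQCRC1: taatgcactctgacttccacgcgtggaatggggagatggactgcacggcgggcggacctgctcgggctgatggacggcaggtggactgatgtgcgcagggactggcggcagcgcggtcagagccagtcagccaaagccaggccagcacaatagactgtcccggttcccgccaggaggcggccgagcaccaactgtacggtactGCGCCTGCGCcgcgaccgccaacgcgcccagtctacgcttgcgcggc
SDHA: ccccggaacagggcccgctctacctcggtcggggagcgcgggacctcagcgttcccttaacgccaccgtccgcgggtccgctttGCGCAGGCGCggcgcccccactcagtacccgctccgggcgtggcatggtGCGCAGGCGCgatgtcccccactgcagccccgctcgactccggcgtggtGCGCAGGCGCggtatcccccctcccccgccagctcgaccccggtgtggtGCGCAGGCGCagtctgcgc

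SDHA held 4 copies of the NRF1 core and UQCRC1 held 1, UQCRQ held 1 ETS core, NDUFA2 held 1 CCAAT box and ATP5PB held no match in these bases. RefSeq promoters of 300 bases (250 before the start and 50 after it) were matched for 66 of the 85 members. Of these, 16 held the NRF1 core (24.2%, against 6.28% of 27305 promoters of all genes), 18 the ETS core (27.3%, against 10.7%) and 11 the YY1 core (16.7%, against 3.03%). The CCAAT box was in 34.8% of them and in 35.7% of all promoters. At least 1 of the NRF1, ETS and YY1 cores was in 36 of the 66, against 17.9% of all promoters. Of the 31 matched members that were lower in all 3 states, 7 held the NRF1 core, 10 the ETS core and 5 the YY1 core. Of the 26 other matched members tested, the numbers were 7, 7 and 4. A match is only a run of letters and says nothing of binding.

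Several of the members with the largest differences share a chromosome. NDUFA2, NDUFS4, UQCRQ and COX7C lie on chromosome 5 between 44826076 and 181272307 (GRCh38), and the 519 other tested genes of that stretch had median knockdown differences of -0.43, -0.44 and -0.45 in M1, M2 and M0. SDHA and NDUFS6 lie between 196871 and 44820428 of the same chromosome, where the 105 other tested genes had medians of 0.62, 0.52 and 0.52. The stretches were drawn with results of these data known. The shifted stretches on chromosomes 1 and 8 held no member. The 4 members of the lowered stretch differed by more than the median of its other genes, COX7C for example by -0.86 in M1. Of the 67 tested members outside the stretches, 42 were lower and 4 higher in M1, 49 lower and none higher in M2, and 45 lower and 1 higher in M0. Their medians were -0.39, -0.49 and -0.46, so the lower level of most subunit genes was as large without the members of chromosome 5. For the 6 members on chromosome 5, a difference of the single gene and one of its stretch cannot be told apart.

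The subunit genes are short, with a median length of 2462 bases for the members tested against 4355 for all genes kept. Members were therefore set beside other protein-coding genes of like length. In M0, 12 of the 21 members with models up to 1500 bases were lower (57.1%, against 28.8% of the other genes of that length). In the classes of 1501 to 3000 bases and of 3001 or more, 71.4% and 71% of the members were lower, against 27.6% and 27%. In M1 the 3 classes gave 52.4%, 66.7% and 67.7% of the members, against 30.2%, 33.3% and 30.4% of the other genes. In M2 they gave 66.7%, 85.7% and 67.7%, against 32.4%, 30.4% and 27.7%.

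Many other genes of the same system were lower too. The shares of all genes called lower were 28.7%, 26.7% and 26.3% in M1, M2 and M0. The 6 tested subunit genes outside the naming rule gave 5 lower in each state. Among them COX4I1, a main subunit of complex IV, averaged 30.2 ± 1.79 FPKM in CES1KD M0 cells and 45.6 ± 1.12 FPKM in WT M0 cells, and NDUFAB1, the acyl carrier protein of complex I, 30.3 ± 1.99 and 38.7 ± 3.74 FPKM. Cytochrome c (CYCS) averaged 24.2 ± 0.925 FPKM in CES1KD M1 cells and 37.1 ± 2.63 FPKM in WT M1 cells. ATP5IF1, the inhibitor of ATP synthase, was not called in any state. Of the 13 mitochondrially encoded subunits, 9, 13 and 10 were lower in M1, M2 and M0 and none higher, with medians of -0.51, -0.67 and -0.56. MT-CO3, of the core of complex IV, averaged 1132 ± 48.5 FPKM in CES1KD M0 cells and 2102 ± 290 FPKM in WT M0 cells.

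Of 14 citric acid cycle genes other than complex II, 10, 9 and 9 were lower and 2, 0 and 3 higher. Citrate synthase (CS) averaged 19.2 ± 0.611 FPKM in CES1KD M1 cells and 30.3 ± 2.63 FPKM in WT M1 cells. Of 15 protein import genes, 11, 8 and 5 were lower and none higher, among them the receptor TOMM20 at -0.74, -0.45 and -0.49. Of 13 complex I assembly factors, 9, 6 and 8 were lower. Assembly factors of complexes II and III gave 6 lower of 10 in each state, with BCS1L, which inserts the Rieske protein into complex III, at -1.26, -0.64 and -0.74. Complex IV assembly factors gave 8, 7 and 6 lower of 18 and 0, 2 and 2 higher, with medians of -0.23, -0.19 and -0.06. In M0 the shares of these factors and of the import genes called lower were not far above the 26.3% of all genes. Of the 3 assembly factors of complex V, 2 were lower in each state, and in M0 ATPAF2 was higher at 0.22.

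Of the regulators of respiratory genes, 6, 4 and 4 of 13 were lower and 3, 4 and 5 higher. Over all genes, 28.7%, 26.7% and 26.3% were lower and 28.5%, 25.6% and 28.1% higher. In M2 and M0 the share of regulators called lower was near that of all genes. PPARGC1B, a coactivator of respiratory genes, averaged 2.28 ± 0.236 FPKM in CES1KD M1 cells and 5.09 ± 0.117 FPKM in WT M1 cells. It differed by -0.89, -0.11 and -0.46, of which the M2 value was not called (adjusted p = 0.141), and it lies in the lowered stretch of chromosome 5. PPRC1, a related coactivator, was higher in M2 at 0.55 and in M0 at 0.65. In M1 it averaged 11.6 ± 0.307 FPKM in CES1KD and 11.5 ± 0.952 FPKM in WT cells. Of the 6 regulators lower in M1, MYC and TFB2M differed by -0.84 and -0.71. PPARGC1A was at or below 0.114 FPKM in every library.

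The genes of the cytosolic ribosome, which has no part in respiration, were lower too. Of 77 ribosomal protein genes tested, 67, 64 and 61 were lower in M1, M2 and M0 and 1, 0 and 0 higher, with medians of -0.71, -0.56 and -0.55. RPL5, a protein of the large subunit, averaged 126 ± 2.53 FPKM in CES1KD M0 cells and 243 ± 13.5 FPKM in WT M0 cells. Of 75 mitochondrial ribosomal proteins, 46, 29 and 27 were lower and 3, 4 and 8 higher, with medians of -0.39, -0.18 and -0.14. The lower level is thus not particular to the respiratory subunits.

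**Figure D4:**
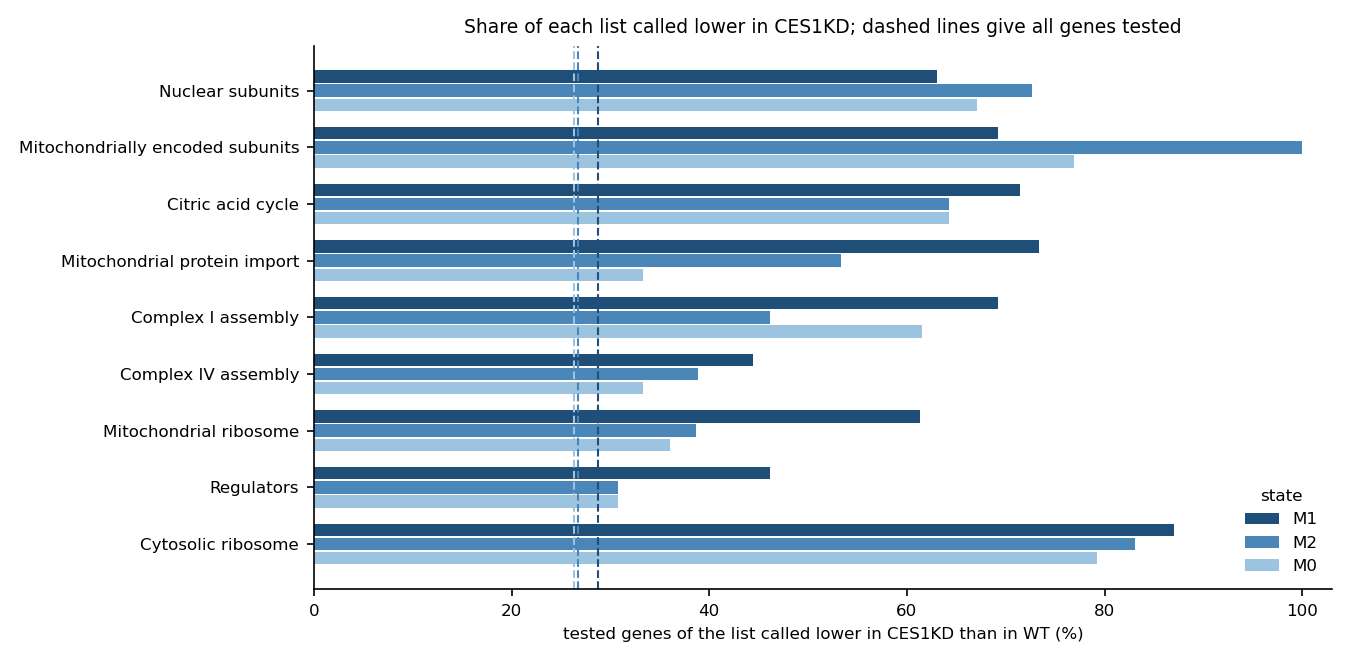
Share of the tested genes of each list that were called lower in CES1KD than in WT (horizontal axis, percent, from 0), in M1, M2 and M0. Bars are lists and dashed lines give the share over all genes tested, 28.7%, 26.7% and 26.3%. The bars of every list end to the right of the lines in all 3 states, among them the nuclear subunits (63%, 72.6% and 67.1%). Those of the regulators end close to the lines in M2 and M0.

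Few members were called with LPS and interferon gamma. With M1 set against M0, 4 members were higher and 5 lower of 73 in CES1KD cells, where 24.9% of all genes were higher and 19.8% lower (44.7% in either direction). In WT cells 2 were higher and 10 lower, against 26.4% and 21.8% (48.1% in either direction). Fold changes in M1 depend on the authors' adjusted library size: scaled by total fragments, 40 members were lower in CES1KD and 49 in WT cells and none higher. Over all genes that scaling gave 13.7% higher and 40.3% lower in CES1KD and 15% and 42.8% in WT cells, and the median of all genes moved by -0.18 and -0.20. Relative to that shift, the median of the members was -0.12 in CES1KD and -0.17 in WT cells, beside -0.08 and -0.14 under the authors' scaling.

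The lower members included ATP5PB in both lines. It was at 36.8 to 38.3 FPKM in CES1KD M1 libraries and at 45.6 to 49.1 FPKM in CES1KD M0 libraries, a difference of -0.33 (SE 0.04, adjusted p = 1.05e-06), and in WT cells it differed by -0.32. ATP5MC1, a c-ring gene, was at 10.1, 10.6, 9.61 and 9.38 FPKM in CES1KD M1 libraries and at 12.8, 14.0, 13.5 and 14.4 FPKM in CES1KD M0 libraries. It fell by 0.43 in CES1KD and by 0.25 in WT cells on the log2 scale (SE 0.09). UQCRHL, a near-identical copy of UQCRH, was at 1.46, 0.813, 0.813 and 1.38 FPKM in CES1KD M1 libraries and at 1.45, 2.41, 2.37 and 1.63 FPKM in CES1KD M0 libraries, which overlap. It differed by -0.49 in CES1KD and -0.48 in WT cells (SE 0.17), and its fragments may be split with UQCRH. The other lower members in CES1KD cells were CYC1 at -0.22 and NDUFA10 at -0.12. The calls of ATP5PB and, in CES1KD cells, ATP5MC1 held without any 1 library, while those of ATP5MC1 in WT cells, UQCRHL, CYC1 and NDUFA10 were lost without at least 1 library of the groups compared.

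In WT cells UQCRB was at 14.1, 12.5, 11.5 and 16.8 FPKM in M1 libraries and at 21.7, 20.9, 21.3 and 20.9 FPKM in M0 libraries, a difference of -0.61 (SE 0.15, adjusted p = 0.00185). NDUFA4 was at 27.7, 30.4, 28.4 and 33.6 FPKM in WT M1 libraries and at 42.5 to 45.7 FPKM in WT M0 libraries, a difference of -0.54 (SE 0.08, adjusted p = 1.06e-05). NDUFB10, UQCRC2, COX7A2L and ATP5MG were also lower in WT cells, at -0.40, -0.25, -0.22 and -0.30. Of these 6, NDUFB10 and ATP5MG lost their call without at least 1 library of the WT M1 or M0 group.

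The members higher in M1 were few, and their direction rests on the scaling. In CES1KD cells NDUFC1, a membrane arm subunit of complex I, was at 14.7, 13.7, 13.9 and 15.6 FPKM in M1 and at 9.95, 11.7, 11.8 and 10.3 FPKM in M0 libraries. The difference was 0.38 (SE 0.15, adjusted p = 0.0432). COX7A2 was at 68.7, 65.6, 80.1 and 76.5 FPKM in CES1KD M1 and at 62.0, 62.0, 65.4 and 62.2 FPKM in CES1KD M0 libraries, a difference of 0.20 (SE 0.07). NDUFB5 and NDUFA5 were at 0.20 and 0.19. In WT cells SDHB was at 32.6, 31.1, 34.0 and 33.9 FPKM in M1 and at 29.1, 28.9, 27.0 and 31.0 FPKM in M0 libraries, a difference of 0.18 (SE 0.06). ATP5F1A, at 43.5, 46.0, 44.9 and 40.5 FPKM in WT M1 and 38.8, 40.0, 37.2 and 41.5 FPKM in WT M0 libraries, differed by 0.15 (SE 0.05), with overlap. Scaled by total fragments, COX7A2, NDUFB5, NDUFA5, SDHB and ATP5F1A took the opposite sign, and NDUFC1 was not called. Each of the 6 also lost its call without at least 1 library of the groups compared.

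Members called with IL-4 were higher. With M2 set against M0, 17 of 73 were higher in CES1KD cells and none lower, where 11.3% of all genes were higher and 11.5% lower (22.8% in either direction). In WT cells 19 were higher and none lower, against 14.6% and 12.5% (27.1% in either direction). The medians of the members were 0.14 and 0.10, and those of all genes were within 0.01 of 0. Counts rested on single libraries. Without CES1KD M2 replicate 2, 28 members were higher in CES1KD cells, and without CES1KD M2 replicate 4, 9 were. In WT cells 11 were higher without WT M2 replicate 4, and 12 without WT M2 replicate 2 or WT M0 replicate 2 or 3. Scaled by total fragments, 13 were higher in CES1KD cells, and 7 were higher and 1 lower in WT cells, while the median of all genes moved by -0.04 and -0.08.

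In complex V, 5 of the 15 genes tested were higher in M2 than in M0 in CES1KD cells and 4 in WT cells. ATP5F1B, the catalytic beta subunit, averaged 274 ± 8.39 FPKM in CES1KD M2 cells and 228 ± 6.62 FPKM in CES1KD M0 cells, and 354 ± 13.2 and 288 ± 13.5 FPKM in WT M2 and M0 cells, differences of 0.27 and 0.30 (SE 0.04). ATP5PB rose by 0.35 in CES1KD and by 0.27 in WT cells (SE 0.04), and ATP5F1A by 0.23 and 0.20 (SE 0.05). UQCRC1 was at 89.0, 88.2, 94.3 and 95.9 FPKM in WT M2 and at 64.5, 60.8, 64.9 and 68.7 FPKM in WT M0 libraries. The libraries were far apart, and the difference was 0.34 in CES1KD cells and 0.50 in WT cells (SE 0.06, adjusted p = 0.000242 and 1.78e-06). UQCRFS1, the Rieske iron-sulfur protein of complex III, rose by 0.22 in CES1KD and by 0.23 in WT cells (SE 0.07). UQCRC2 rose by 0.36 in CES1KD cells (SE 0.06) and was not called in WT cells, at 0.10. CYC1 rose by 0.24 in WT cells (adjusted p = 0.0483). The calls of ATP5F1B, ATP5PB and UQCRC1 held in both lines without any 1 library, while that of UQCRFS1 was lost without any of 2 of the 24 libraries in each line and that of CYC1 without any of 17.

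In complex I, NDUFS6, a zinc-binding accessory subunit, was at 45.8, 42.7, 37.3 and 41.8 FPKM in CES1KD M2 libraries and at 27.6, 33.3, 31.8 and 29.2 FPKM in CES1KD M0 libraries. The difference was 0.45 (SE 0.10, adjusted p = 0.00278). In WT cells it was 0.24 and not called, and the difference between the lines was 0.20 and not called. NDUFB5 rose by 0.30 in CES1KD cells, and NDUFA6, an accessory subunit of the LYR family, by 0.27 in CES1KD and 0.28 in WT cells. NDUFS3 and NDUFS8, core subunits of the ubiquinone module, rose by 0.31 and 0.29 in WT cells (SE 0.06). SDHA rose by 0.23 in CES1KD and 0.14 in WT cells, and SDHC by 0.20 in WT cells. In complex IV, COX6C and COX7A2 rose by 0.33 and 0.22 in WT cells. Leaving out 1 library ended the call of SDHA in WT cells for 15 of the 24 libraries, that of COX6C for 7, that of COX7A2 for 4 and that of NDUFA6 in CES1KD cells for 2. That of SDHA in WT cells was also lost with each scaling other than the authors'.

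NDUFA4L2 rose in both lines at a low level. Most of the 9 libraries in which it had at least 1 FPKM were M2 libraries. Without these it would not have passed the filter, so the test of the rise was not independent of the filter. It was at 1.82, 0.672, 2.18 and 1.9 FPKM in CES1KD M2 libraries and at 1.13, 0.809, 0.526 and 0.92 FPKM in CES1KD M0 libraries, which overlap through CES1KD M2 replicate 2. In WT cells it was at 1.07, 0.916, 1.14 and 1.07 FPKM in M2 and at 0.468, 0.4, 0.48 and 0.494 FPKM in M0 libraries, which do not overlap. The log2 difference was 0.49 in each line (SE 0.15, adjusted p = 0.0226 in CES1KD and 0.0195 in WT), and the ratios of the means were 1.94 and 2.28. The CES1KD call was lost without CES1KD M2 replicate 1, 3 or 4 or CES1KD M0 replicate 3, and with 0.1 in place of 1 added before log2.

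Among the other lists, 6 of the 14 citric acid cycle genes rose with IL-4 in CES1KD cells and 8 in WT cells, with 1 and 0 lower. Over all genes, 11.3% and 14.6% were higher and 11.5% and 12.5% lower. None of the 13 mitochondrially encoded subunits was called in either line by limma, and the cytosolic ribosome gave 0 higher and 2 lower of 77 in CES1KD cells and 5 higher and 1 lower in WT cells. PPARGC1B averaged 5.16 ± 0.358 FPKM in CES1KD M2 cells and 2.36 ± 0.115 FPKM in CES1KD M0 cells, a rise of 0.88, and 5.68 ± 0.469 and 3.64 ± 0.355 FPKM in WT M2 and M0 cells, a rise of 0.53. With M1 set against M0, PPARGC1B differed by -0.03 in CES1KD cells, which was not called, and rose by 0.39 in WT cells.

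**Figure D5:**
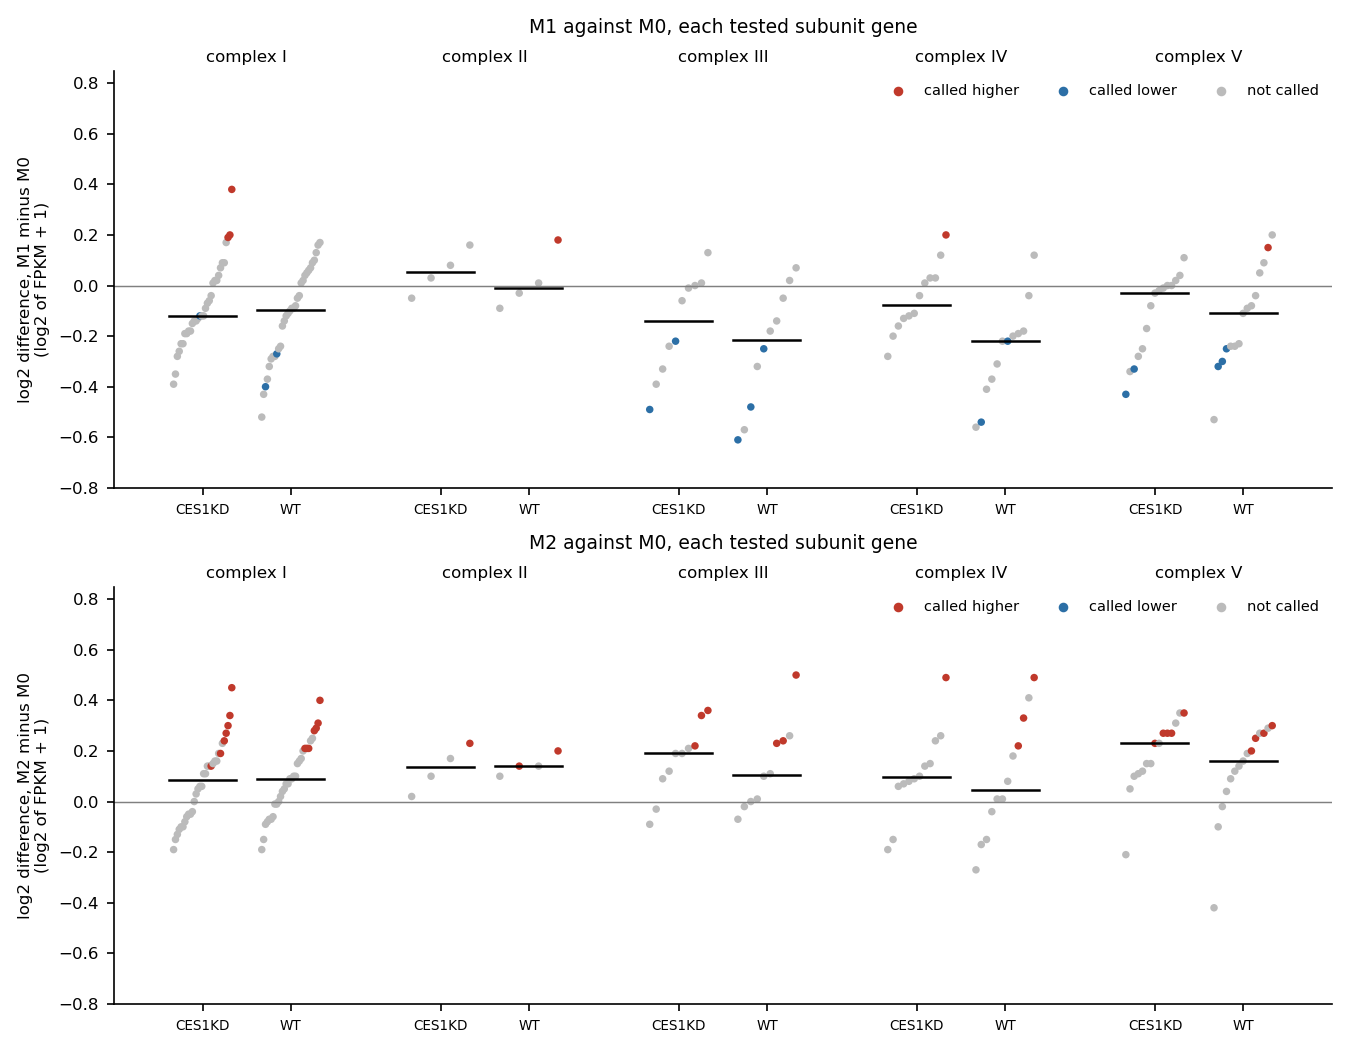
Log2 differences of each tested subunit gene (vertical axes, on the log2(FPKM + 1) scale) for M1 against M0 (upper panel) and M2 against M0 (lower panel), by complex and line. Each point is a gene, coloured by its call, and black lines are medians. M1 points scatter about 0 with 4 and 2 called higher and 5 and 10 called lower in CES1KD and WT, and M2 points are called in the higher direction only, 17 and 19.

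Few members had a knockdown difference that was called apart between states. Its value in M1 minus that in M0 was called for 4 of the 73 members, all higher, where 10.4% of all genes were higher and 13.2% lower (23.6% in either direction). NDUFA4 was lower in the knockdown line in both states, and the difference was smaller in M1 by 0.41 (SE 0.12, adjusted p = 0.012). The CES1KD libraries were at 18.6 to 21 FPKM in M1 and at 20.9 to 23.5 FPKM in M0, while the WT libraries were at 27.7 to 33.6 FPKM in M1 and at 42.5 to 45.7 FPKM in M0. UQCRC2, also lower in the knockdown line in both states, had a change of 0.23 (SE 0.08, adjusted p = 0.0368), a call that was lost without WT M1 replicate 3 or 4 and several others.

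NDUFA5, an accessory subunit of complex I, also changed by 0.29 (SE 0.09, adjusted p = 0.0212), a call lost without WT M0 replicate 2. It was at 4.35, 4.42, 4.28 and 4.1 FPKM in CES1KD M1 libraries and at 4.36, 4.56, 4.75 and 4.38 FPKM in WT M1 libraries, which overlap. In M0 it was at 3.47, 3.62, 3.85 and 3.6 FPKM in CES1KD and at 4.43, 5.42, 4.7 and 5.14 FPKM in WT libraries, which do not. The 12 numbered pseudogenes of NDUFA5 in the table reached up to 3.88 FPKM, close to its own level, so its values are uncertain.

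The knockdown difference in M2 minus that in M0 was called for none of the 73 members with limma, where 2.41% of all genes were higher and 4.24% lower (6.65% in either direction). At an unadjusted p under 0.05 there were 3, and limma voom on the recovered fragments called 1. For the other lists, the knockdown difference was lower in M1 than in M0 for 16 of 75 mitochondrial ribosomal proteins and 6 of 13 regulators. It was so for 5 of 18 complex IV assembly factors and 4 of 13 complex I assembly factors, and for 13.2% of all genes. In M1 minus M0, none of the 13 mitochondrially encoded subunits and none of the 6 subunits outside the naming rule was called by limma. In that comparison 0 of either were at an unadjusted p under 0.05. Among the genes called lower in M1 minus M0 were COA7, a complex IV assembly factor, at -0.85, and NDUFAF4, of complex I, at -0.59.

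The 12 members that did not pass the filter were NDUFA7, NDUFA9, NDUFA13, NDUFV2 and NDUFC2-KCTD14 of complex I, COX6A2, COX6B2, COX7A1, COX7B2 and COX8C of complex IV, and ATP5MF-PTCD1 and ATP5MGL of complex V. NDUFV2 and NDUFA9, parts of any working complex I, were listed at up to 0.523 and 0.66 FPKM, and NDUFA13 and NDUFA7 at up to 1.26 and 1.21 FPKM. Each of these 4 overlaps another gene on the same strand in the annotation, and no source used here says how shared fragments were counted. Low expression and fragments left out of the count cannot be told apart for them. In all, 55 members overlap another gene and 43 have numbered pseudogenes in the table.

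For the isoform pairs, the form known from most tissues was the abundant form in every group. COX6A1 averaged 10.7 ± 4.17 FPKM in CES1KD M1 cells and 14.3 ± 10.1 FPKM in WT M1 cells, and COX6A2, the form of heart and muscle, was listed at 0 throughout. COX6B1 averaged 59.8 ± 7.4 FPKM in CES1KD M0 cells and 98.9 ± 3.69 FPKM in WT M0 cells, and COX6B2, of testis, reached at most 0.0595 FPKM. COX7A2 averaged 62.9 ± 1.65 FPKM in CES1KD M0 and 88.0 ± 4.3 FPKM in WT M0 cells, and COX7A1, of heart and muscle, reached at most 0.705 FPKM. COX7A2L, which joins complexes III and IV into supercomplexes, was at 9.18 ± 0.381 FPKM in CES1KD M0 and 10.6 ± 0.503 FPKM in WT M0 cells and fell there by 0.19. COX7B averaged 13.7 ± 1.03 FPKM in CES1KD M0 and 26.2 ± 0.568 FPKM in WT M0 cells, and COX7B2 was listed at 0. COX8A averaged 119 ± 12.4 FPKM in CES1KD M0 and 155 ± 15.8 FPKM in WT M0 cells, and COX8C reached at most 0.532 FPKM. Of the paralogs outside the naming rule, COX4I2 was listed at 0 in all 24 libraries and C15orf48, a relative of NDUFA4, at no more than 0.327 FPKM.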

How the data were processed

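RNA from 24 libraries of THP-1 macrophages was sequenced, 4 in each of 6 groups. The authors deposited FPKM values (fragments scaled to gene length and library size) for 58735 genes with gene lengths and coordinates. The submitters' processing notes list CASAVA, HISAT2 and DESeq without versions or roles. No source used here names the build or says how overlapping genes were counted. RNA integrity numbers were above 4, per the labels' protocols. Coordinates matched GENCODE 29 (GRCh38) for 58724 genes and all 85 members. Within each library 100% of values, times gene length, were whole multiples of a single step (tolerance 1e-06), which gave back 14881563 to 26671681 fragments per library. The authors' scaling was not by these totals. Because the unit was FPKM, a count test was not the main test.

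Genes with at least 1 FPKM in at least 4 libraries were kept (13242). One linear model with 6 group means was fitted to log2(FPKM + 1) of all 24 libraries with limma 3.58.1 in R 4.3.3 (eBayes with trend, two-sided, Benjamini-Hochberg adjustment over all genes kept, called at adjusted p under 0.05) in 9 comparisons. The 1 added before log2 understates changes of low genes. On simulated data for CES1KD against WT in M0 with 13242 genes, 67, 67 and 66 genes of higher level were changed by 0.3, 0.5 and 1 on the log2 scale. The test recovered 47.8%, 74.6% and 97% of them, with 8 false calls. The simulated noise was independent between libraries, with 1 spread per gene. In the data 54.3% of genes were called in M0 and libraries shared deviations, so these figures do not give the error rate of the real calls. The members, lists and tests were chosen with earlier results of these data known. Named are, per comparison and complex, up to 3 called members in each direction by p, with every library for the 2 in each direction with the largest change, every member below the filter, the isoform pairs and up to 3 genes of a list by p. NDUFS1, NDUFV1, NDUFA1, UQCRH, ATP5MC2, ATP5MC3 and the 11 members without a call were named after their values were seen. Alternatives were another added value, other filters, scalings by total fragments and by median of ratios, voom, each comparison's groups alone, a replicate block, and leaving out each library. Promoters were taken from RefSeq (GRCh38.p14), 1 per gene, with no entry for 19 members. Counts include every member tested, but the values of 1 member are not reported here.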

Additional observations from a re-analysis of the deposited data

Results flagged for a closer look

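The knockdown difference was not the same in M1 and M0 for 4 members by the test of the difference in limma. Among them the change, M1 minus M0, was 0.41 for NDUFA4, 0.29 for NDUFA5 and 0.23 for UQCRC2. For NDUFA4 and UQCRC2 the WT level was lower in M1 than in M0, and for NDUFA5 the knockdown level was higher in M1.

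Within groups, 3 of 126 sets of 4 libraries had a library far from the other 3, where chance gives about 1 in 20. ATP5MC1 was at 11 FPKM in CES1KD M2 replicate 2, with the others at 16.5 to 17.4 FPKM, in the library that also stood apart over all genes. COX7A2 was at 65.4 FPKM in CES1KD M0 replicate 3, with the others at 62 to 62.2 FPKM, a gap that is small beside the level. UQCRHL was at 2.43 FPKM in WT M0 replicate 4, with the others at 2.93 to 3.01 FPKM.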

How the results depend on the processing

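Under every setting run, most members called in the knockdown comparisons were lower. With each comparison's groups alone, 35 members were called in M2, of which 34 were lower. Without the members in the chromosome stretches, 0 were higher in M2 and 1 in M0, and with scaling by total fragments 1 was higher in M0. For M1 against M0 in CES1KD cells, scaling by total fragments called 40, with 0 higher and 40 lower, no filter called 5, with 2 higher and 3 lower, the replicate block called 14, with 9 lower, and the groups alone gave 8 lower. In WT cells, scaling by total fragments called 49, with 0 higher and 49 lower, the median of ratios and voom called 19 each, with 0 higher and 19 lower, and the groups alone gave 16 lower. For M2 against M0 the groups alone called 9 in CES1KD cells, all higher, and scaling by total fragments called 8 in WT cells, with 7 higher and 1 lower. For the knockdown effect in M1 minus that in M0, scaling by total fragments and the replicate block gave 1 lower. In M2 minus M0, scaling by total fragments, the median of ratios and voom called 1, which was higher. The cause of these moves was not tested.

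With scaling by total fragments, M1 against M0 turned to -0.02 for NDUFA5, -0.03 for NDUFB5 and -0.05 for COX7A2 in CES1KD cells, and to -0.07 for SDHB and -0.10 for ATP5F1A in WT cells, none of them called.

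Leaving out each library in turn gave 40 to 52 members lower and 5 higher in M1, 40 to 55 lower and 1 to 2 higher in M2, and 44 to 55 lower and 2 to 3 higher in M0. M1 against M0 called 4 to 18 members in CES1KD cells (0 to 5 higher, 2 to 13 lower) and 8 to 20 in WT cells (0 to 3 higher, 7 to 18 lower). M2 against M0 called 9 to 28 in CES1KD and 11 to 24 in WT cells, with 0 lower. The knockdown effect in M1 minus that in M0 called 2 to 6 (2 to 5 higher, 0 to 2 lower), and in M2 minus M0 called 0 to 1. Without CES1KD M2 replicate 2, M1 against M0 called 18 in CES1KD and 20 in WT cells, and without WT M1 replicate 4 it called 19 in WT cells.

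Of 104 results for named members, 80 held their call without any 1 library, 24 lost it without some library and 0 reversed without any. The call was lost by 12 with no filter and by 12 with scaling by total fragments. The 5 above, which are not among those 12, reversed with that scaling and so lost their call too. Of the 104, 7 lost the call with the groups alone, 5 with the median of ratios and 4 with voom. With 0.1 added before log2 it was lost by 1, and with the replicate block by 0. Libraries with the same replicate number correlated between -0.14 and 0.41 in their deviations. Between the lines, 2 of the 4 same-number pairs in M1 and 3 of the 4 in M2 were above 0.1. In M0, and between states of a line, 0 were. The numbers were not read as pairs in the main fit. An effect of replicate number shared by the lines in M1 and M2 was not tested beyond the replicate block. Depth, 14881563 to 26671681 fragments, limits the members near 1 FPKM.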
